A study of Drosophila melanogaster with 2 samples.

Results

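Deep intronic summits are peaks recovered with the CG31224-eGFP fusion protein whose highest point lies inside a gene, in no annotated exon, and more than 2500 bp from the transcription start site (TSS) of any gene. They numbered 655 of the 3810 summits on the 7 main chromosomes (17.2%, 95% Wilson interval 16 to 18.4). The rule uses position alone, from the Ensembl annotation of the fly genome, and no signal value; it was set with earlier results of these data known. The data come from chromatin immunoprecipitation and sequencing (ChIP-seq), using an anti-GFP antibody, of whole Drosophila melanogaster embryos aged 0 to 24 h, from a transgenic strain that carries CG31224 fused to eGFP. There was 1 group of 2 biological replicates, so comparisons are between positions, genes or replicates and not between conditions. Whole embryos of all these ages were pooled, so a peak does not say in which cells or at which age the DNA was recovered, and no embryos without the fusion were analysed here. The main list was made from both replicates together; replicate 1 alone gave 378 deep intronic summits among 2402, and replicate 2 alone gave 389 among 2602.

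CG31224 encodes a protein with C2H2 zinc fingers, a class in which tandem fingers read runs of bases in DNA. Introns far from a start site are spliced out of the transcript, but their DNA can hold enhancers, the stretches bound by transcription factors that set when and where a gene is transcribed. In Drosophila the long introns of genes for transcription factors and signalling proteins hold many of the known enhancers of embryonic development.

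The sequences at the strongest of these summits are shown first, because a short word recurs in them. Each peak has a signal value, a score from the authors' processing with no stated scale, used here to rank and describe peaks. The 7-base word CAGGCGC, or its reverse complement GCGCCTG, was the 7-mer with the largest excess in the 60 strongest deep intronic summits over windows beside them. The windows that follow are 101 bases centred on the summit, from RefSeq's copy of the dm6 assembly, written 5′ to 3′ on the strand that carries the word, with the word in capitals.
Tlk, chrX:3742639-3742739, minus strand: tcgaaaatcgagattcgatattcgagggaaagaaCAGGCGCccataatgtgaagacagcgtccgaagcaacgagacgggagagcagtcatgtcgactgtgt
Hr96, chr3R:25027923-25028023, plus strand: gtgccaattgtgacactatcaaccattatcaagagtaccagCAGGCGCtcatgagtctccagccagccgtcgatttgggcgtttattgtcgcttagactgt
ush, chr2L:510848-510948, minus strand: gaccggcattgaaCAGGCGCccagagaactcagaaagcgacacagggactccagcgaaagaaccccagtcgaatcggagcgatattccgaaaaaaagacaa
bab2, chr3L:1146658-1146758, minus strand: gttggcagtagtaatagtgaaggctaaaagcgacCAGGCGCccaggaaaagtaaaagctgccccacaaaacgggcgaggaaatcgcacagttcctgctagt
CG9328, chr2L:20800527-20800627, plus strand: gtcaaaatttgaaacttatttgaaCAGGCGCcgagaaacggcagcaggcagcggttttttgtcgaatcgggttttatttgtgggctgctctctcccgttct
PVRAP, chr3L:6001108-6001208, plus strand: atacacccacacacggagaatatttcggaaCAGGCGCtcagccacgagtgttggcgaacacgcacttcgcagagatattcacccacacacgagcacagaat
The 6 host genes are Tlk, a kinase of chromatin assembly (signal 2494), the nuclear receptor gene Hr96 (995), the zinc finger cofactor gene ush (730), the BTB-domain transcription factor gene bab2 (594), CG9328 (584) and PVRAP (486). In each window the word begins within the 50 bases on either side of the summit, and most copies are followed, after 1 base, by ca.

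Strong summits without an exact copy of the word are shown for contrast, on the plus strand and with no capitals.
beat-Ib, chr2L:15909123-15909223, plus strand: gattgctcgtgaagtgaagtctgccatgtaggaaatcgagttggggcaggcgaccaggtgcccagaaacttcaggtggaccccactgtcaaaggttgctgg
crp, chr2L:16275334-16275434, plus strand: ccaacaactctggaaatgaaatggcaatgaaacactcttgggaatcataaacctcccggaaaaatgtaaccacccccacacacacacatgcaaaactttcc
sbm, chrX:14599581-14599681, plus strand: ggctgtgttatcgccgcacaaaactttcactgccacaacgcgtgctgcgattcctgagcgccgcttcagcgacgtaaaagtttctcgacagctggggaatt
CG32486, chr3L:3060744-3060844, plus strand: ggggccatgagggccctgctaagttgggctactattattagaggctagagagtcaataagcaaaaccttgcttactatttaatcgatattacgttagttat
These lie in beat-Ib, an immunoglobulin-family gene of motor axon guidance (signal 1547), in crp, a bHLH transcription factor gene (810), in sbm, an amino acid transporter gene (799), and in CG32486 (624). A high signal was therefore found both with and without an exact copy of the word. Near matches were not counted. The beat-Ib window holds caggcga, which differs from the word only in its last base. The lncRNA:CR44779 window, not printed, holds its reverse complement tcgcctg. In the sbm window stands gagcgcc, whose reverse complement begins with ggcgc, the end of the word.

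The word was held by 13 of the 60 strongest summits (21.7%, 95% Wilson interval 13.1 to 33.6) within 50 bp. In windows of the same width centred 300 bp away it was in 0 of 60 towards lower coordinates (Wilson upper bound 6.02%) and in 1 of 60 towards higher ones. The word was chosen against 4 flanks per summit, at 300 and 500 bp on either side, and 4 of those windows held it. These counts are a description, since the word was chosen on the same 60 windows. Counts of this kind use 624 summits, after the weaker of any closer than 400 bp was dropped. Beyond the strongest 60 the word was held by 1 of the next 60, 2 of 120 at ranks 121 to 240, 2 of 240 at ranks 241 to 480 and 2 of the last 144. That is 7 of 564 together (1.24%, 0.602 to 2.54), beside 2 of 564 and 6 of 564 in the lower and higher flanks. Of all 374757 windows of 101 bases in deep intronic DNA, 0.537% hold it. Rank 60, at a signal of 206, is the edge of the set the word was chosen on. Within that set most of the summits with the word were at the top, from Tlk at rank 1 to EDTP at rank 22 of all 655, followed by Kdm4B at rank 32 and tna at rank 44.

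**Figure D1:**
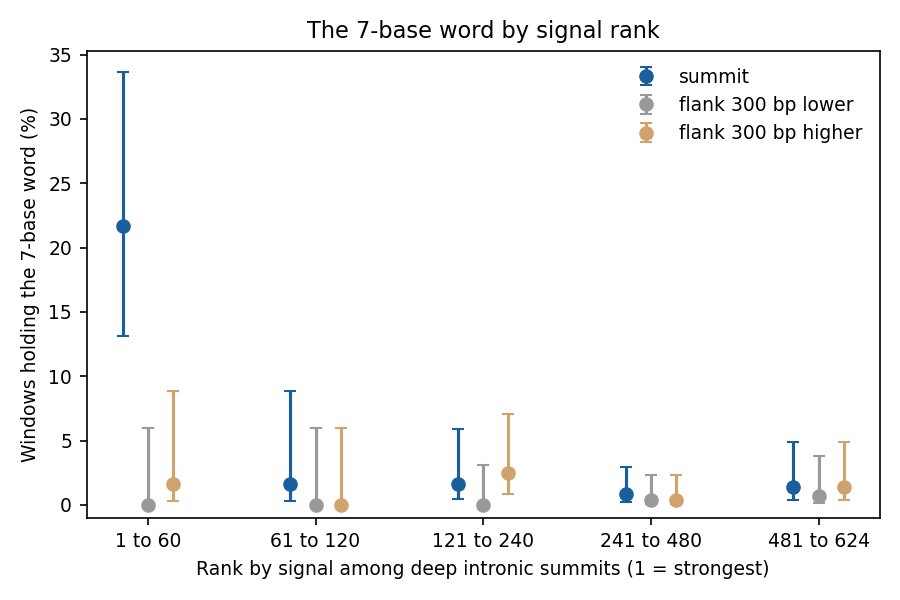
Share of windows with the 7-base word (percent, points, with 95% Wilson intervals) by rank of signal among 624 deep intronic summits, at the summit and in windows centred 300 bp to either side. The 60 strongest summits stand at 21.7% at the summit, where the word was chosen, and no other point rests on more than 3 windows.

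The word was then counted in the other classes of summit. Its selection used deep intronic summits, but strong summits of other classes had been looked at earlier, so these counts are a description too. Among the 60 strongest of each other class it was at 5 intronic summits within 500 to 2500 bp of a TSS (8.33%, 3.61 to 18.1), 4 summits outside genes over 2500 bp from a TSS (6.67%, 2.62 to 15.9) and 4 promoter summits within 500 bp of a TSS (6.67%, 2.62 to 15.9). Among the weaker summits of those classes it was at 2 of 602, 1 of 185 and 10 of 1672. The 95% Wilson intervals of strong and weak summits did not overlap in the near intronic (weak 0.0912% to 1.2%) and promoter classes (0.325% to 1.1%), and did in the deep intergenic class (0.0955% to 3.0%). Beside the 60 strongest, the lower and higher flanks held the word in 0 and 0 near intronic windows. For deep intergenic summits they were 0 and 1, and for promoters 2 and 0. At the 60 strongest of each of these classes, the intervals of summit and flanks overlapped. Flanks of the weaker summits held the word in 10 and 3 of 602, 0 and 1 of 185, and 17 and 16 of 1672. By count, the weaker near intronic and promoter summits held it less often than their flanks. The excess of deep intronic summits over these classes among the 60 strongest is not independent of how the word was chosen. The 60 strongest also end at unlike signals: 206 at deep intronic, 304 at near intronic, 160 at deep intergenic and 586 at promoter summits.

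In all, 21 of the 655 summits had the word within 50 bp, at a median of 16 bp from its middle base to the summit. Counting from 1 at the word's first base on its own strand, C stood at position 9 in 18 of the 21 copies (85.7%) and A at position 10 in 20 (95.2%). G followed at position 11 in 16 of the 21, and A stood just before the preceding base, at position -1, also in 16. A longer form, CAGGCGCNCA, was built from these same 21 copies, with the bases that stood in at least 80% of them. Its counts at deep intronic summits are therefore a description, and their excess over other windows and classes is not independent of that choice. The longer form CAGGCGCNCA was held by 12 of the 60 strongest (95% Wilson interval 11.8% to 31.8%), 5 of the 564 others (0.887%, 0.379 to 2.06) and 0.0544% of all deep intronic windows. Among the 60 strongest of the other classes the longer form was at 4 near intronic, 3 deep intergenic and 3 promoter summits. Beyond their 60 strongest it was at 1 of 602, 0 of 185 (Wilson upper bound 2.03%) and 3 of 1672.

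The copies outside the sequences printed lie in known regulators as well as in genes of other kinds. They include 3 summits of CG6191, and summits of shot, which encodes the spectraplakin Short stop, of pdm3, a POU-domain transcription factor gene, and of EDTP, a phosphoinositide phosphatase gene. Further down the signal ranks they include Kdm4B, a histone demethylase gene (signal 287), tna (243), lov (158), sky (129), mam (107), unc-5, a netrin receptor gene (72.8), bol (65.7), sr, the tendon cell transcription factor gene (57.1), and Dad, an inhibitor of Dpp signalling (41.0).

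Base composition at the summits moved with signal rank as well. Over all 655, the GC content of the 101 bases at the summit was below the mean of the 2 flanks at 440 summits (67.2%, 95% Wilson interval 63.5 to 70.7). All deep intronic windows had a mean GC content of 40.2%. At the 60 strongest the mean was 41.3% ± 10.9 (SD, n = 60 summits) and that of their flanks 42.9% ± 6.48, and 27 of 60 were lower at the summit. At ranks 61 to 240 the summit mean was 33.4% ± 9.91 (n = 180) against 42.9% ± 7.11 in the flanks, and 144 of 180 were lower at the summit. At ranks over 240 the summit mean was 37.9% ± 11.3 (n = 415) against 42.7% ± 6.53, and 269 (64.8%) were lower. Measured this way the strongest 60 had lower GC at the summit less often than the rest: the share with lower GC was 24.4 percentage points below that of the other 595 (95% Newcombe interval 11.3 to 36.8 below). In narrower windows of 51 bp the strongest did fall, to 42.5% at the summit against 46.7% at 100 bp lower and 45.8% at 100 bp higher.

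**Figure D2:**
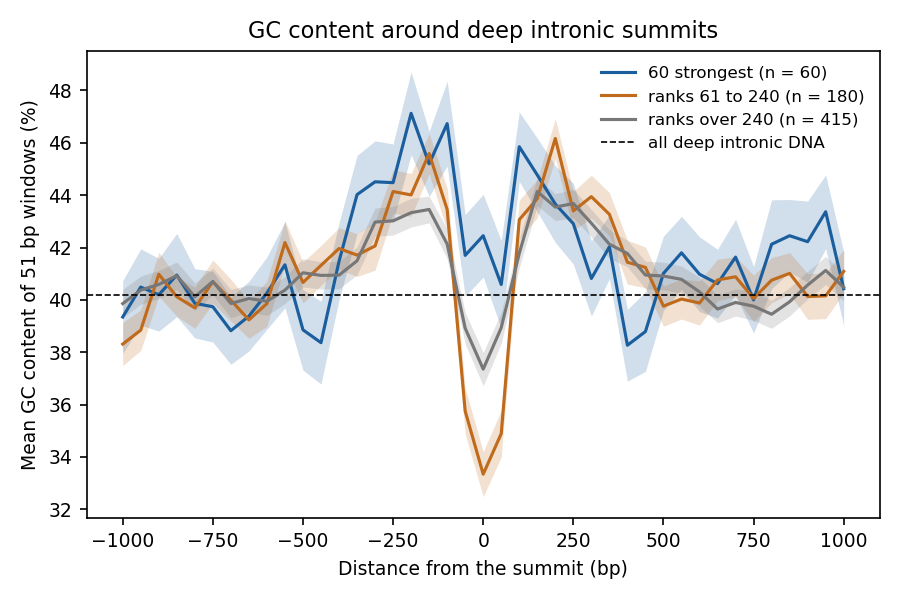
Mean GC content (percent) of 51 bp windows by distance from the summit (bp), for 3 ranges of signal rank, with shading of 1 standard error over summits and a dashed line at the 40.2% of all deep intronic DNA. Ranks 61 to 240 dip lowest at the summit, and all 3 ranges rise above the dashed line at 100 to 250 bp to either side.

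Lower GC at the summit was also found at near intronic summits (69.1% lower at the summit) and promoter summits (69.2%), and less often at deep intergenic ones (140 of 261, 53.6%). The difference between deep intronic and deep intergenic summits was 13.5 percentage points (95% Newcombe interval 6.53 to 20.5). It was 11.8 points (3.02 to 20.7) in the list of replicate 1 and 17.9 points (9.05 to 26.8) in that of replicate 2. Against near intronic summits the interval held 0 in each of the 3 lists, with -1.97 points (-6.92 to 2.99) in the main list. Against promoters it held 0 in the main list (-6.23 to 2.1) and in that of replicate 2, but in that of replicate 1 the share was 66.9% against 74.9%, a difference of -7.98 points (-13.4 to -2.77).

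Words of 6 bases were screened over 624 summits against the flank 300 bp towards lower coordinates, with a two-sided exact sign test per word and Benjamini-Hochberg adjustment over 2080 words. Of these, 114 passed at an adjusted p below 0.05 (5.48% of words), 71 more often at the summit (3.41%) and 43 more often in the flank (2.07%). The words higher at the summit were mostly AT-only or nearly so: 55 of the 71 had at most 1 G or C. Of the 43 higher in the flank, 42 had 3 or more. The leading word, ATATTA, was only at the summit in 113 pairs and only in the flank in 33 (adjusted p = 3.96e-08, exact sign test). CCCGCA was only at the summit in 1 pair and only in the flank in 28 (adjusted p = 2.91e-05, exact sign test). Neither 6-base part of the word of the strongest summits passed: CAGGCG was only at the summit in 34 pairs and only in the flank in 21 (adjusted p = 0.358, exact sign test), and AGGCGC in 27 against 16 (adjusted p = 0.387, exact sign test).

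Of 31 elements of known factors, 1 passed (3.23%). The TATA box, searched as TATAAA on both strands, was at 19.4% of summits and 10.7% of the lower flanks, with 12.8% over all deep intronic windows (103 pairs against 49, adjusted p = 4.38e-04, exact sign test). It is itself an AT-only word, and the part of base composition in this difference was not tested. Elements that did not pass included the Zelda site CAGGTAG (5 pairs against 5), the GAGA repeat GAGAGA (28 against 34), the GATA site AGATAA (48 against 35) and the DRE TATCGATA (1 against 1). Each had an adjusted p of 0.528 or more (exact sign test), which does not show that summit and flank were alike.

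By strength, the deep intronic summits ranged from 2.04 to 2494 with a median of 79.5 (95% interval 76.6 to 84.1). Medians were 88.7 at near intronic, 85.9 at deep intergenic and 96.7 at promoter summits. The share above the main list's median of 89.1 was 41.2%, against 49.7%, 47.5% and 54.3% in those classes. The difference from promoters was -13 percentage points (95% Newcombe interval -17.4 to -8.58) and from near intronic summits -8.49 points (-13.7 to -3.19), and that from deep intergenic ones had an interval that held 0 (-6.29, -13.4 to 0.80). In the list of replicate 1 the difference from promoters was -10.2 points (-15.8 to -4.41), from near intronic summits -6.04 (-12.8 to 0.83) and from deep intergenic ones -9.77 (-18.7 to -0.70). In that of replicate 2 they were -10.1 (-15.6 to -4.45), -7.95 (-14.5 to -1.24) and -8.49 (-17.6 to 0.77). The lowest values belong to summits beside a stronger one: of the 31 dropped for lying within 400 bp of a stronger member, 28 were below 41.0, the lowest value kept.

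The 20 strongest lie in genes of varied function. Beside those with printed sequences, shot had 1181 (636 in replicate 1 and 558 in replicate 2, at 2R:13935484-13935804), pdm3 914 (466 and 434), spir, an actin nucleator gene, 669 (404 and 256), and chn, a zinc finger repressor gene, 591 (332 and 262). The nuclear receptor gene Hr3 had 444 (223 and 223) and the lncRNA gene lncRNA:CR44779 had 477 (275 and 209). The Hr3 summit also lies in CG46321 and CG12912. CG6191 and CG45088, which overlap on the same strand, held 4 of the 20: 3 summits in the interval 2R:13583918-13585151 at 1441, 914 and 658, and 1 in 2R:13583484-13583795 at 486 (269 and 247). The 3 share 1 peak in each replicate, at 711 and 617, so they are not separate measurements in the replicates. The value in replicate 1 was the higher for most of the 20 strongest, close to equal for Hr3, and the lower for CG32486, at 268 in replicate 1 and 359 in replicate 2.

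In the lists of the single replicates, 260 of the 655 (39.7%, 36.0 to 43.5) overlapped a peak in both, 217 (33.1%) in 1 and 178 (27.2%) in neither. The share in both was lower than at near intronic summits (47.0%, difference -7.31 points, 95% Newcombe interval -12.5 to -2.02), deep intergenic ones (48.3%, -8.58, -15.7 to -1.49) and promoters (53.6%, -14.0, -18.3 to -9.52). Signal moved with this share: with the main list cut into 3 equal parts by signal, 97.6% of deep intronic summits in the strongest part were in both, against 96.5%, 98.9% and 97.2%, and each interval of the difference held 0. In the middle part it was 39.2%, against 40.3%, 48.6% and 47.1%, and in the weakest part 2.32%, against 5.93%, 4.90% and 6.34%. In the middle part the interval of the difference held 0 against near intronic and deep intergenic summits and not against promoters (-7.85, -15.1 to -0.28). In the weakest part it lay below 0 against near intronic summits (-3.62, -7.59 to -0.07) and promoters (-4.03, -6.72 to -0.85) and held 0 against deep intergenic ones (-2.59, -8.78 to 1.26). All 60 of the strongest were in both.

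In the ranked lists, which hold weaker sites, 607 (92.7%) had a summit within 100 bp in each replicate, against 3493 of all 3810 summits (91.7%). In the conservative version of the main list were 546 (83.4%), against 3235 of all (84.9%), so both shares were near those of the whole list. Over the 251 with a summit within 100 bp in both thresholded lists, replicate 1 minus replicate 2 on the log2 scale was 0.06 at the median, with an SD of 0.46.

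**Figure D3:**
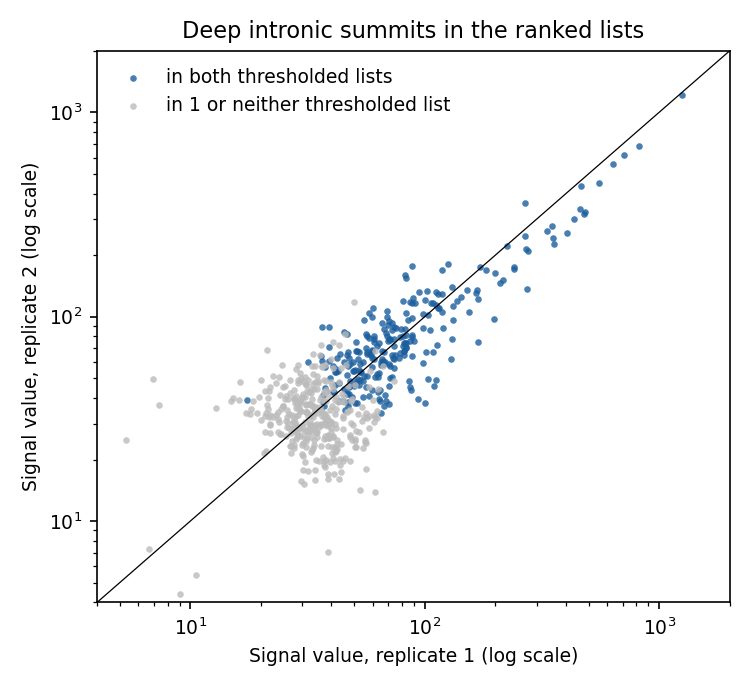
Signal value in replicate 1 and replicate 2 (log axes) for the 607 deep intronic summits found within 100 bp in both ranked lists; blue points are in both thresholded lists and grey points in 1 or neither, and the line marks equal values. The strong summits lie along the line or a little below it, up to 1255 and 1219 for Tlk, and the grey points form a cloud at low values.

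The DNA that the rule allows measures 39.4 Mb, 28.7% of the sequenced bases. It held 16.6 summits per Mb, against 8.97 per Mb in DNA outside genes at over 2500 bp from a TSS (ratio 1.85, 95% Poisson interval 1.61 to 2.14). On the 5 large arms alone the ratio was 1.76 (1.53 to 2.03). Intronic DNA at 500 to 2500 bp from a TSS held 49.0 per Mb (deep over near 0.339, 0.305 to 0.377), and the whole of the 7 chromosomes 27.8 per Mb. These intervals cover counting error over summits only. The arms 2L, 2R, 3L, 3R and X held 122, 123, 122, 144 and 144 summits, and chromosomes 4 and Y held 0 in 0.394 and 0.854 Mb of such DNA, which allows up to 7.61 and 3.51 per Mb at a limit of 3 counts.

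Density fell with distance from the TSS on both sides of the gene boundary. At 2500 to 5000 bp deep intronic DNA held 26.8 summits per Mb and intergenic DNA 16.4. At 5000 to 10000 bp it held 21.2 against 11.7, at 10000 to 20000 bp 11.6 against 8.08, and beyond 20000 bp 4.61 against 1.60. The counts behind the intronic values are 276, 235, 101 and 43 summits. The median distance was 5675 bp, and the farthest summit, in DIP-lambda, an immunoglobulin-family gene, lay 237427 bp from a TSS at 2R:564027-564362 with a signal of 73.7 and no summit within 100 bp in either replicate's thresholded list. Next came luna at 53960 bp (75.1, with 36.7 in replicate 1 and 38.1 in replicate 2) and the homeobox gene hth at 47674 bp (71.2, in replicate 1 only at 37.5). Just inside the limit stood summits in shn at 2512 bp (signal 89.9), beat-Ib at 2518 bp (1547) and Oatp30B at 2518 bp (259), and just outside it summits in Usp10 at 2490 bp (64.3), hng3 at 2483 bp (75.5) and CG4297 at 2483 bp (4.08).

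**Figure D4:**
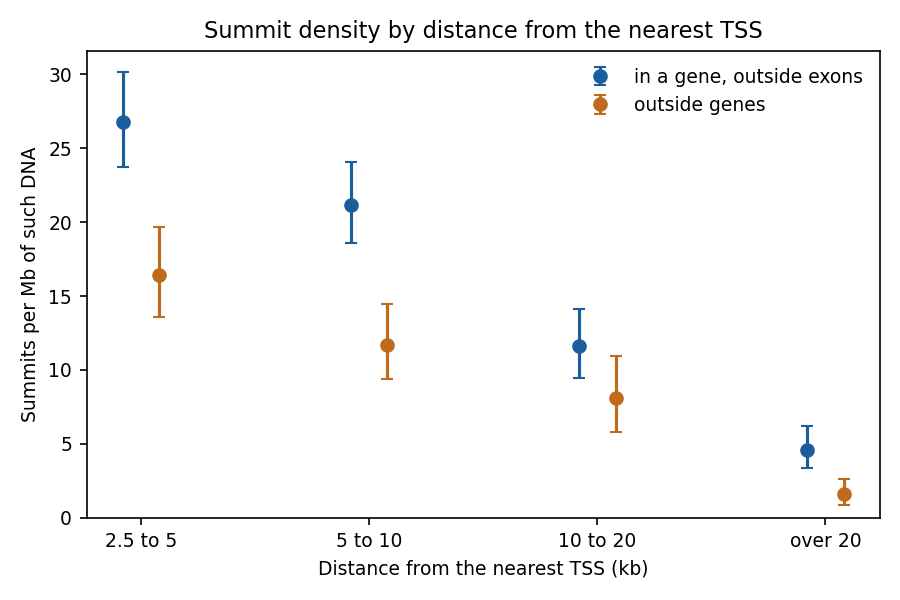
Summits per Mb of DNA by distance from the nearest TSS (kb), for DNA in genes outside exons (blue) and DNA outside genes (orange), with 95% intervals for counting error. The blue points fall over the 4 ranges from 26.8 to 4.61 and lie above the orange ones in each.

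Within genes the summits were denser in first introns. DNA in the first intron of a transcript held 27.0 per Mb (382 summits in 14.2 Mb), against 10.8 per Mb in the rest of deep intronic DNA (273 in 25.2 Mb; ratio 2.49, 95% Poisson interval 2.13 to 2.91). The ratio was above 1 at each distance from a TSS: 1.87 (1.46 to 2.39) at 2500 to 5000 bp, 1.95 (1.5 to 2.53) at 5000 to 10000 bp, 1.76 (1.19 to 2.60) at 10000 to 20000 bp and 3.45 (1.87 to 6.36) beyond. By length of the exon-free stretch the density was 11.3 per Mb in stretches up to 5 kb, 26.2 at 5 to 10 kb, 21.2 at 10 to 20 kb, 15.6 at 20 to 50 kb and 4.65 above 50 kb. The nearest exon was 2977 bp away at the median, and 6 of the 655 were within 100 bp of an exon; the rule, which keeps summits out of exons and far from TSSs, fixes much of this distance. A single summit was in an annotated transposable element, and 19.7% were in soft-masked repeats, against 23.3% at near intronic, 19.2% at deep intergenic and 23.7% at promoter summits.

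The summits fell in 406 genes, 11.5% of the 3536 genes with any deep intronic DNA, and 393 of the 406 are protein-coding. A summit in overlapping genes was counted for each of them, which holds for 38 of the 655 (5.80%). Of the hosts 257 held 1 summit, 80 held 2, 31 held 3, 20 held 4 and 18 held 5 or more. Another deep intronic summit lay within 5000 bp for 235 of the 655 (35.9%) and within 1000 bp for 126 (19.2%). The nearest TSS belonged to a host gene for 436 (66.6%), so for the rest it was a different gene's.

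The 18 hosts with 5 or more are given by known role, with no share of such roles among all genes set beside them. Genes for transcription factors, cofactors or the TSC-22 leucine zipper family (bun) among them were shn, of the Dpp pathway (8 summits), sbb (8), mam, the Notch coactivator (8), apt (7), chn (6), bun (6), pdm3 (5), ush (5), the nuclear receptor genes Hr4 (5) and Eip75B (5), and the Hox gene Antp (5). Kinase genes were Raf, of the MAP kinase cascade (5), and msn, a Ste20-family kinase (5). Pde11, a cyclic nucleotide phosphodiesterase gene, and heca had 5 each, lncRNA:CR44999 had 6, and the overlapping CG6191 and CG45088 shared 5. Other hosts overlap genes too: lncRNA:CR44999 spans Myc and CG12535, which hold 2 and 4 of its summits. Of the 5 in Antp, 4 also lie in CG46458. Of the 5 in CG6191 and CG45088, 3 lie in 1 interval that is 1 peak in each replicate. Median signals within a gene ran from 52.6 in Antp to 131 in sbb, 143 in Hr4, 157 in pdm3 and 658 in CG6191 and CG45088. The 8 summits of sbb all had values of 77.4 to 192, 5 of them in both replicate lists, while the 8 of shn ran from 2.32 to 192, with 1 in both. These host counts use all 655 summits, and values below 41.0 belong to summits within 400 bp of a stronger one.

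**Figure D5:**
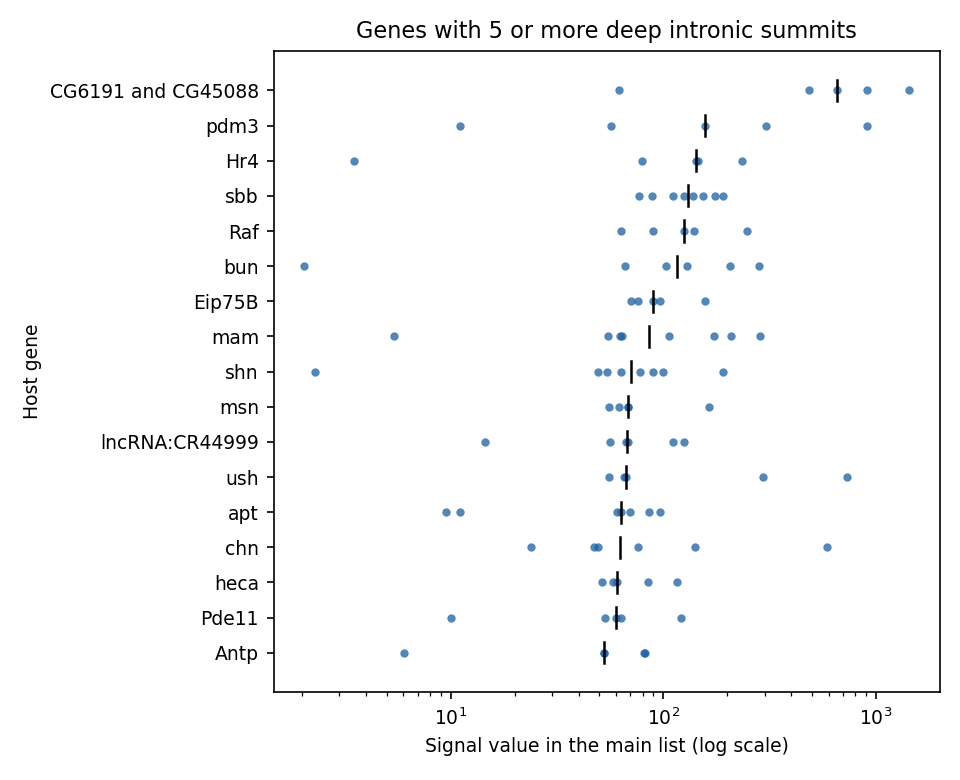
Signal value (log axis) of every deep intronic summit in each gene that holds 5 or more, 1 point per summit, with a black tick at the gene's median; CG6191 and CG45088 overlap and share 1 line. CG6191 and CG45088 stand apart at a median of 658, with 3 of their 5 summits in 1 interval. The lowest points are summits down to 2.04 in bun, and all points below 41.0 lie within 400 bp of a stronger summit.

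Listed groups of genes differed in how many summits they held per length of deep intronic DNA, beside 16.6 per Mb over all genes. The lists were written with earlier results of these data known. Density also varied with distance from a TSS and length of the exon-free stretch, as given above. The group values were not adjusted for either, and the part of these in the group differences was not tested. Signalling pathway genes held 36 summits, 51.5 per Mb, in 17 of 38 genes with such DNA (44.7%, against 11.5% of all genes); mam, aos, an EGF receptor inhibitor (strongest 265), the Wnt receptor gene fz (4 summits, strongest 202) and N, the Notch receptor (161), were among them. Without mam the group stood at 42.7 per Mb. Nuclear receptor and ecdysone response genes held 40.7 per Mb in 7 of 18 genes, and 33.5 without Hr4. Patterning transcription factor genes held 31.9 per Mb in 12 of 45, with chn, ush, bab2 (4 summits) and luna (4), and 27.1 without chn.

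Per Mb the other groups stood near or below the value of all genes, while by share of genes some stood above its 11.5%. Axon guidance and adhesion genes, whose introns are long, held 25 summits in 15 of 52 genes (28.8%, 95% Wilson interval 18.3 to 42.3) and 10.4 per Mb, among them beat-Ib, Dscam1 (2, strongest 355), kirre (4, strongest 237) and sli, the Robo ligand (139). Cytoskeleton and muscle genes held 15.6 per Mb in 3 of 28 (10.7%), from shot, trio and Mef2, and 5.61 without Mef2, a muscle transcription factor with 4. Ion channel and synaptic genes held 6.85 per Mb in 5 of 42 (11.9%), with 4 of their 9 summits in dnc, a cAMP phosphodiesterase gene (strongest 363). RNA-binding protein genes held 5.89 per Mb in 6 of 27 (22.2%, 10.6 to 40.8), among them how, Rbfox1, pum and bru3, the strongest at 114. No test was made of these group values.

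Host genes also had promoter summits more often. Of the 393 coding hosts, 108 (27.5%) had a summit within 500 bp of a TSS of their own, against 588 of 3042 (19.3%) other coding genes with deep intronic DNA, a difference of 8.15 percentage points (95% Newcombe interval 3.73 to 13). Without replicate 1 the difference was 4.76 points (0.26 to 10.04), and without replicate 2 it was 7.44 (2.77 to 12.9). Gene structure moved with this: hosts had a median of 2 TSSs and 18.6 kb of deep intronic DNA, against 1 TSS and 1.76 kb in the others. Among genes with 1 TSS the shares were 19.1% (95% Wilson interval 13.7 to 26.0) against 13% (11.5 to 14.7). With 2 or 3 TSSs they were 26.3% (20.3 to 33.4) against 24.5% (22.1 to 27.2), and with 4 or more 50.8% (38.9 to 62.5) against 39.8% (33.9 to 46.1). The intervals of hosts and other genes overlapped in each of these ranges. The part of gene length in the remaining differences was not tested.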

How the data were processed

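The deposited data are peak lists of anti-GFP ChIP-seq on 2 biological replicates, in dm6 coordinates per the labels and the deposited description files; fragments were sonicated to 200 to 800 bp per the labels' protocols. Each peak carries a signal value and an IDR score, both scores that the authors' processing gave, and the lowest deposited IDR score used was 830, which stands for an IDR of 1.00%. No label or header names the aligner or peak caller, the control was not analysed here, and read depth is unknown. Per the labels the immunoprecipitation used an anti-GFP antibody, while the antibody tag names CG31224.

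Of 3815 peaks in the main list, 3810 lay on the 7 chromosomes. Summits were placed on the Ensembl release 115 annotation (17796 genes, with 481 mature microRNA entries and transposable elements left out), with Python 3.11.15, numpy 2.4.6, pandas 2.3.3 and scipy 1.17.1. Overlap with a replicate's peak needed 1 bp. Intervals are 95% (Wilson, Newcombe, or Poisson on the log ratio) and cover the counting of peaks only. Since summits are no replicates, p-values and intervals over them describe these 2 libraries. The screen of words was tested on simulated data.

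Named are the 20 strongest summits, hosts with 5 or more, up to 4 hosts per gene list, 3 summits on each side of the distance limit, and, by their values, all that hold the 7-base word or lie farthest out. The members, lists and tests were chosen with earlier results of these data known, among them a motif at strong summits away from promoters. The word, GC content, first-intron and host-promoter results were added after the data were seen. Words of 7, 8 and 9 bases in the 60 and 150 strongest summits of several classes were looked at before the 7-mer of the 60 strongest was used.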

Additional observations from a re-analysis of the deposited data

How the results depend on the processing

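No result reversed under any alternative. Of 107 values, 82 moved by less than their error or by less than 1.5 times for counts, and 25 moved. Some of the 82 could not move. Chromosomes 4 and Y held 0 of the summits, so on the 5 large arms every value over the summits alone stayed the same. Taking the midpoint of the interval for the summit also left 655 summits. Using 1 replicate's list at a time gave 378 to 389 summits, 44 to 69 called 6-mers, 7.55% to 8.0% of genes as hosts, 66.9% to 73.8% of summits with lower GC than the flanks, and 65.8% to 68.8% of summits found also in the other replicate's list, which is a different share from that of the main list. With a limit of 1000 bp from a TSS there were 1074 summits, 288 called 6-mers, 6 called elements and 8.99% of genes as hosts. With 5000 bp there were 379 summits, 25 called 6-mers, 13.9% of genes as hosts, 34.3% of summits in both replicate lists, 36.9% above the median signal and 11.7% of the 60 strongest with the word. Moving the flank to 500 bp left 21 called 6-mers and 2 called elements, and the flank on the higher side gave 3 called elements; the TATA box passed in each, and the others, led by the Pho core GCCAT, were higher in the flank. Windows reaching 100 bp gave 229 called 6-mers, and 8-mers gave 1. In the ranked lists 92.7% of summits were in both replicates. The cause of these moves was not tested, beyond the fewer summits that a longer limit or a single list leaves. The restriction to the 5 large arms, and every alternative for the word, GC, first introns and host promoters, were chosen after seeing the data. No paired analysis was possible because there is 1 group, so no groups share replicate numbers. Without read counts, a summit absent from a replicate's list cannot be told apart from a weaker one.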
